A study of Zea mays with 6 samples.

Results

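Gibberellins are diterpenoid hormones of growth, germination and seed development. Described here in developing endosperm are 5 maize genes whose descriptions name enzymes of gibberellin synthesis or inactivation. Not every annotation bears that role out, as given below for each gene. They were chosen by identifier from the 39179 genes of the deposited tables, namely copalyl diphosphate synthase3 (Zm00001d024512), gibberellin 20-oxidase4 (Zm00001d013725), gibberellin 20-oxidase1 (Zm00001d034898), Gibberellin 20 oxidase 2 (Zm00001d032223) and gibberellin 2-oxidase1 (Zm00001d037565). The choice was made with the difference between the lines already known. The values of these 5 genes in that comparison are therefore given as a description, with no test. All 5 had enough counts to enter the all-gene fit.

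Endosperm, where the kernel stores its starch and protein, was taken 20 days after pollination. Wild type was the inbred B73, and the other line was nacRNAi (Ni4), which carries an RNA interference construct against NAC transcription factor genes and is listed under the same inbred. The series title calls the controls non-transgenic siblings. The labels do not give the promoter of the construct, and the transgenic line is a single line. RNA from 3 libraries per line was sequenced. The labels do not state whether the 3 libraries per line are separate plants, so any p-value covers the spread between these libraries alone, and that spread may be technical.

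In plants, gibberellin synthesis begins in the plastid, where copalyl diphosphate synthase and kaurene synthase close the rings of geranylgeranyl diphosphate. Kaurene oxidase and kaurenoic acid oxidase then build the first gibberellin, and the soluble 20-oxidases and 3-oxidases turn it into the active hormone, while 2-oxidases inactivate it. The hormone binds the receptor GID1, and the bound receptor sends DELLA proteins, the repressors of the response, to destruction through the F-box protein GID2. In cereal grains, gibberellin is best known for inducing alpha-amylase in the aleurone during germination.

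Total counts per library ran from 55812999 to 69670876. Counts were scaled by TMM, which sets the middle of the genes as the reference, and are given as CPM, that is, counts scaled to a common library size. FPKM values, as the authors deposited them, are used where levels of different genes are compared, because they are per length. Of the presumed targets, taken from knowledge of the study, NAC130 (Zm00001d008403) measured 1337, 1335 and 1055 CPM (wild type) against 238, 227 and 222 CPM (nacRNAi) (log2 fold change -2.44, SE 0.10, edgeR adjusted p = 4.22e-06). NAC128 (Zm00001d040189) stood at 309, 359 and 272 CPM against 248, 300 and 284 CPM (-0.18, SE 0.11, edgeR adjusted p = 0.245). Starchy endosperm markers were abundant in every library, though their summed level was 411006 to 463929 CPM in wild type and 183764 to 195222 CPM in nacRNAi, and 22 of 25 tested markers were called lower (edgeR adjusted p under 0.05), beside 24.0% of all tested genes.

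Of the 5, the gene for gibberellin inactivation is gibberellin 2-oxidase1, 1 of 13 genes described as 2-oxidases. It had nearly no reads in nacRNAi endosperm, while the main 20-oxidase gene, gibberellin 20-oxidase4, stayed among the most abundant transcripts in both lines. Another 20-oxidase-like gene, Gibberellin 20 oxidase 2, was lower in nacRNAi on every scale tried. The values of copalyl diphosphate synthase3 were higher in nacRNAi on every scale tried. For gibberellin 20-oxidase1 and gibberellin 20-oxidase4 the direction depended on the scale. On CPM the libraries of the lines did not overlap for 4 of the 5 genes, 3 lower and 1 higher, where 59.2% of all 22259 tested genes had no overlap. On FPKM there was no overlap for 5 of 5, 2 lower and 3 higher, against 69.3% of all tested genes.

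**Figure D1:**
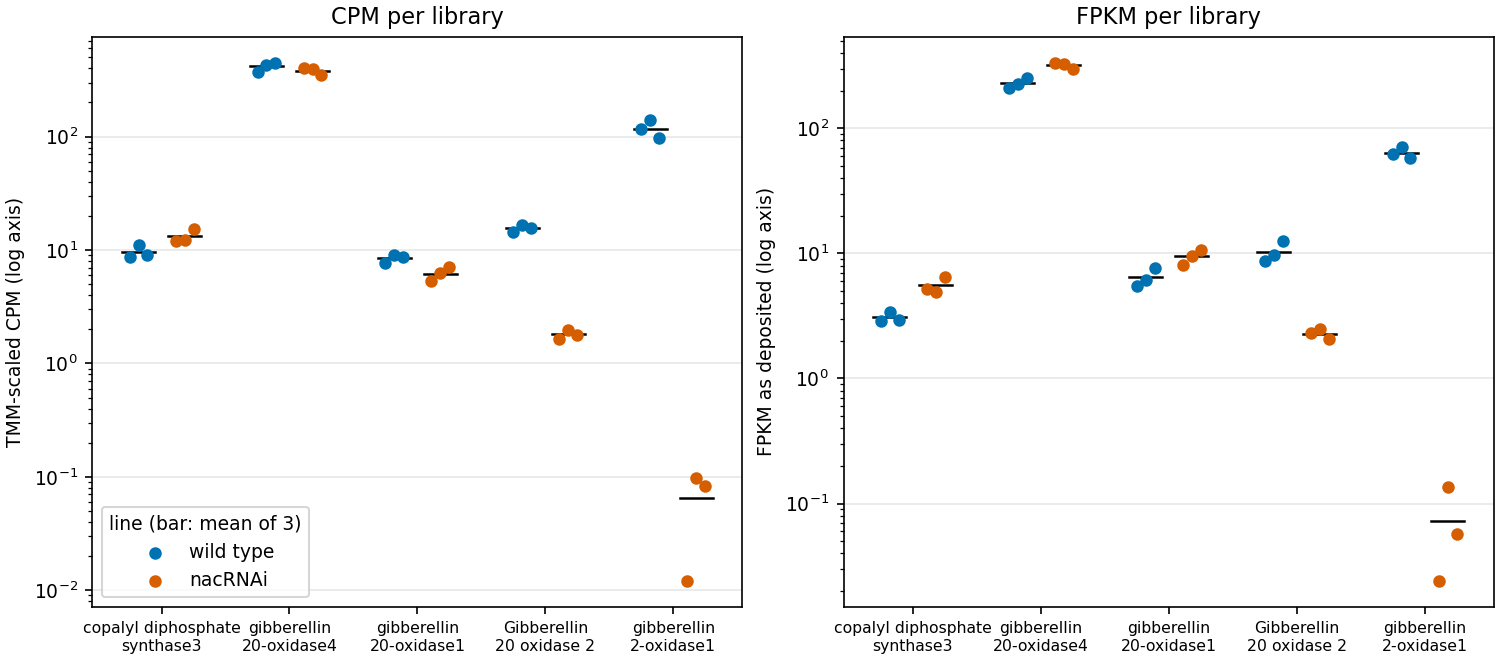
Level of the 5 genes in each of the 6 libraries, as TMM-scaled CPM (left) and deposited FPKM (right), both on log axes; points are libraries and bars are the mean of 3. The gibberellin 2-oxidase1 points fall from 96.3 to 139 CPM in wild type to at most 0.0979 CPM in nacRNAi, and gibberellin 20-oxidase4 stands highest in both lines.

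Copalyl diphosphate synthase3 (chromosome 10, 75069687 to 75075183, minus strand, build not named in the files) encodes an enzyme of the first ring closure. The files annotate it with both ent- and syn-copalyl diphosphate synthase activity and with defense response, and in maize ent-copalyl diphosphate is also the precursor of diterpenoid phytoalexins. It measured 8.74, 11.1 and 9 CPM (wild type) against 12.1, 12.2 and 15.4 CPM (nacRNAi). Every nacRNAi library was above every wild-type library. Its mean was 9.61 ± 1.28 CPM in wild type and 13.2 ± 1.85 CPM in nacRNAi (SD, n = 3 each), a ratio of 1.38 and a log2 fold change of 0.46 (SE 0.14). On FPKM it was 3.08 ± 0.289 and 5.54 ± 0.83 (SD, n = 3 each), a ratio of 1.8.

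The 20-oxidases carry out the step that commits the precursor to active gibberellin, and 3 of the 5 genes are described as such. Gibberellin 20-oxidase4 (chromosome 5, 18631981 to 18633840, plus strand) is annotated with gibberellin 20-oxidase activity. It measured 375, 428 and 449 CPM (wild type) against 402, 394 and 352 CPM (nacRNAi), and the lines overlapped. The means were 418 ± 38.0 and 383 ± 27.1 CPM (SD, n = 3 each), with a log2 fold change of -0.13 (SE 0.09). On FPKM the order turned, with 209, 228 and 252 (wild type) against 335, 329 and 300 (nacRNAi). Every nacRNAi library was then the higher, at a ratio of 1.4.

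Gibberellin 20-oxidase1 (chromosome 1, 305074531 to 305075830, minus strand) carries no gibberellin term in the files, which give only metal ion binding and oxidoreductase activity. It measured 7.71, 9.01 and 8.69 CPM (wild type) against 5.34, 6.22 and 7.06 CPM (nacRNAi), without overlap. The log2 fold change was -0.45 (SE 0.14). On FPKM it measured 5.50, 6.13 and 7.66 (wild type) against 8.04, 9.62 and 10.7 (nacRNAi), again without overlap but with nacRNAi the higher. Its raw counts were close in all 6 libraries, from 414 to 506, and its direction followed the scale.

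Gibberellin 20 oxidase 2 (chromosome 1, 217837369 to 217838681, minus strand) is named for gibberellin, but the files annotate it with auxin catabolic process and with no gibberellin term. It shares its description with Zm00001d049926, which had no read in any library. It measured 14.4, 16.7 and 15.8 CPM (wild type) against 1.65, 1.99 and 1.79 CPM (nacRNAi). The lines were far apart, and the libraries of each line were close together, with a coefficient of variation of 7.22% in wild type and 9.3% in nacRNAi. The mean was 8.66 times lower in nacRNAi, and the log2 fold change was -3.11 (SE 0.13). Of all 22259 tested genes 426 (1.91%) had a log2 fold change as low or lower. On FPKM the values were 8.64, 9.68 and 12.5 (wild type) against 2.31, 2.48 and 2.06 (nacRNAi), a 4.49-fold lower mean.

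Gibberellin 2-oxidase1 (chromosome 6, 129802297 to 129807428, minus strand) encodes an enzyme that hydroxylates gibberellins at carbon 2 and so inactivates them. The files annotate it with C-19 gibberellin 2-beta-dioxygenase activity and gibberellin catabolism. It had 6248, 6682 and 4686 counts (wild type) against 1, 7 and 6 counts (nacRNAi). In CPM these were 116, 139 and 96.3 against 0.0121, 0.0979 and 0.0837. The wild-type libraries were all well expressed, and the nacRNAi libraries lay near the limit of detection, 1 of them under the 3 counts that a count of 0 allows. Pooled over the libraries, the level was 1893 times lower in nacRNAi, with an exact 95% counting interval of 1128 to 3463 that covers counting error only. The log2 fold change was -10.84 (SE 0.34), and 5 of the 22259 tested genes, this gene included, had a value as low or lower. On FPKM it measured 62.6, 71.3 and 57.7 (wild type) against 0.0241, 0.136 and 0.0568 (nacRNAi), a mean 884 times lower, which lies outside the interval of the counts. The FPKM values were not these counts rescaled, since 7 and 6 counts in nacRNAi libraries of similar total stood at 0.136 and 0.0568.

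Ranked by mean FPKM within wild type, gibberellin 20-oxidase4 came first at 230 ± 21.4, above 99.2% of the tested genes. Gibberellin 2-oxidase1 followed at 63.9 ± 6.91, above 96.5% of them, then Gibberellin 20 oxidase 2 at 10.3 ± 1.98, gibberellin 20-oxidase1 at 6.43 ± 1.11 and copalyl diphosphate synthase3 at 3.08 ± 0.289 (SD, n = 3 each). In nacRNAi the order was gibberellin 20-oxidase4 at 322 ± 18.6, gibberellin 20-oxidase1 at 9.46 ± 1.34, copalyl diphosphate synthase3 at 5.54 ± 0.83, Gibberellin 20 oxidase 2 at 2.29 ± 0.21 and gibberellin 2-oxidase1 at 0.0722 ± 0.0575 (SD, n = 3 each). In both orders the libraries of neighbouring genes did not overlap. Gibberellin 20-oxidase4 stayed in the same high place, above 99.3% of the tested genes in nacRNAi, whereas gibberellin 2-oxidase1 moved to 2.98%.

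The scale matters for the smaller differences. With library totals in place of TMM the median of all genes moved by 0.52 log2, and 84.9% of the called genes were then higher in nacRNAi, against 49.2% with TMM. On log2(FPKM + 1) the median moved by 0.38, and 89.2% of the called genes were higher. Under library totals gibberellin 20-oxidase4 had a log2 fold change of 0.39 (SE 0.10), gibberellin 20-oxidase1 of 0.07 (SE 0.15) and copalyl diphosphate synthase3 of 0.98 (SE 0.14). Less the median of all genes there, these came to -0.13, -0.45 and 0.47, near the values with TMM. On log2(FPKM + 1), which understates changes of low genes, the log2 fold changes were 0.49 (SE 0.09), 0.50 (SE 0.14) and 0.68 (SE 0.11). Relative to the median gene of that scale these came to 0.10, 0.11 and 0.30, and with 0.1 added in place of 1 to -0.11, -0.04 and 0.23. Gibberellin 2-oxidase1 was at -10.32 under library totals and at -5.91 on log2(FPKM + 1), and Gibberellin 20 oxidase 2 at -2.60 and -1.76. In whole endosperm, fewer cells that express a gene and less RNA per cell cannot be told apart.

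**Figure D2:**
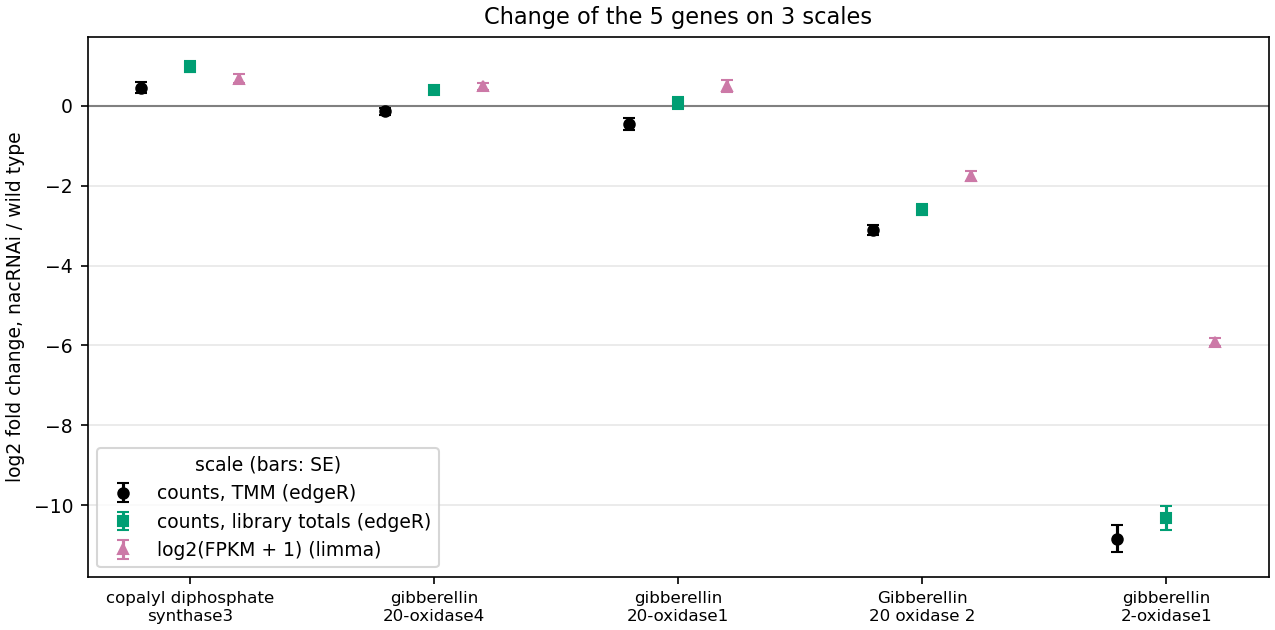
Log2 fold change of nacRNAi over wild type for the 5 genes on 3 scales, with SE as bars; circles are TMM-scaled counts, squares counts scaled by library totals and triangles log2(FPKM + 1). Gibberellin 2-oxidase1 and Gibberellin 20 oxidase 2 lie below 0 on each, and copalyl diphosphate synthase3 above 0; the gibberellin 20-oxidase4 and gibberellin 20-oxidase1 points change side, from -0.13 and -0.45 with TMM to 0.39 and 0.07 with library totals.

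Within the 20-oxidase family, 1 gene held nearly all of the transcript. Of the summed FPKM of 7 genes described as 20-oxidases, gibberellin 20-oxidase4 held 93.2% ± 0.553 (wild type) against 96.3% ± 0.494 (nacRNAi; SD, n = 3 each). Gibberellin 20 oxidase 2 held 4.14% ± 0.388 and 0.685% ± 0.0365, and gibberellin 20-oxidase1 held 2.59% ± 0.192 and 2.85% ± 0.548. The other members were nearly silent. Gibberellin 20-oxidase3 (Zm00001d042611) had at most 21 counts in a library, gibberellin 20-oxidase5 (Zm00001d012212) at most 9 and gibberellin 20-oxidase2 (Zm00001d007894), a different gene from Gibberellin 20 oxidase 2, at most 1.

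Among the 13 genes described as 2-oxidases, the gene that held most of the transcript differed between the lines. This sum was formed after the values had been seen. Gibberellin 2-oxidase1 held 90.4%, 85.6% and 88% of the summed FPKM (wild type) against 0.06%, 0.379% and 0.171% (nacRNAi). A gene described as Gibberellin 2-beta-dioxygenase (Zm00001d037724, chromosome 6, 135240118 to 135243717) held 5.67%, 10.7% and 7.36% (wild type) against 96%, 97% and 97.2% (nacRNAi). The sum itself was 72.7 ± 9.37 FPKM in wild type and 36.4 ± 3.46 FPKM in nacRNAi (SD, n = 3 each). The 20-oxidase sum was 247 ± 24.4 and 334 ± 17.8 FPKM, but on TMM-scaled CPM it was 442 ± 39.4 and 391 ± 26.4, with overlap, so its direction turned with the scale. The 2-oxidase sum on CPM was 128 ± 24 and 24.3 ± 2.39, lower in nacRNAi as on FPKM.

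**Figure D3:**
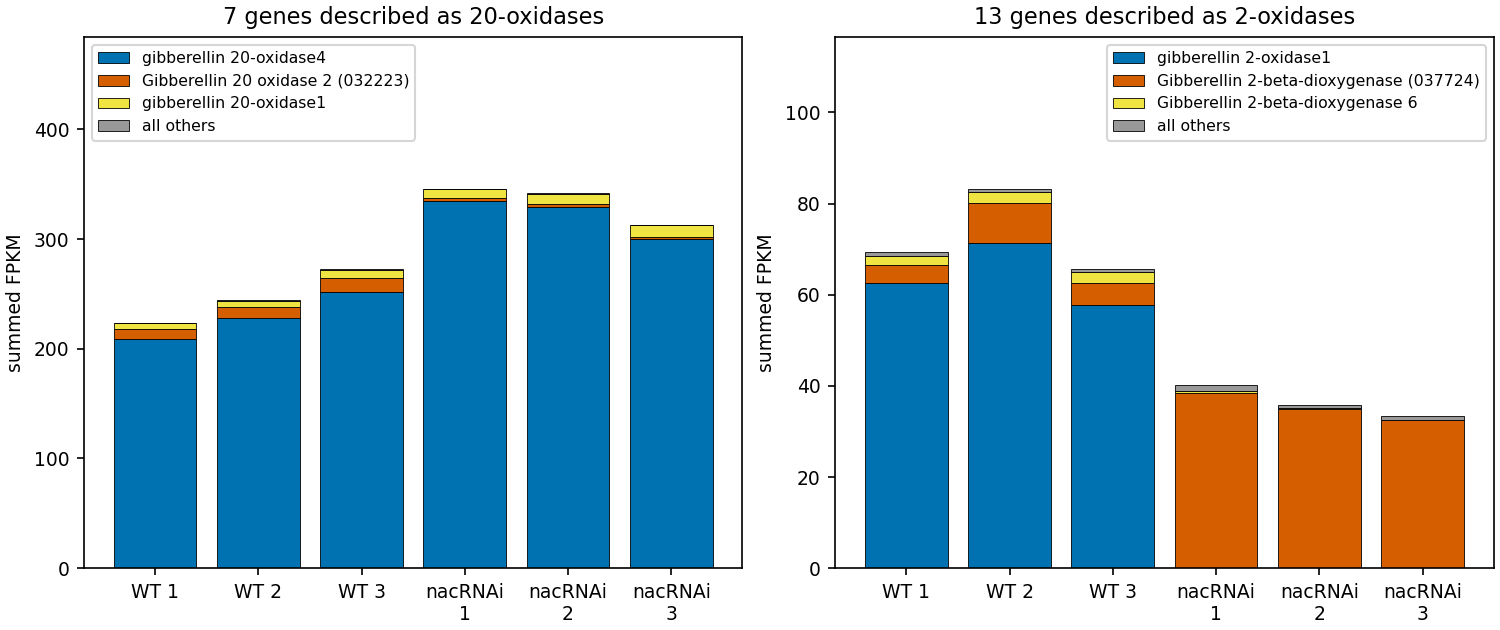
Summed FPKM per library of the 7 genes described as 20-oxidases (left) and the 13 genes described as 2-oxidases (right), stacked by gene; WT is wild type. Gibberellin 20-oxidase4 fills over 93% of the left bars on average in both lines, while on the right gibberellin 2-oxidase1 fills the wild-type bars and Zm00001d037724 the nacRNAi bars.

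The remaining inactivation genes were tested in the all-gene fit, where 47.3% of the 22259 tested genes were called (quasi-likelihood test of edgeR, p under 0.05 after Benjamini-Hochberg adjustment), 23.2% higher and 24.0% lower. Of 12 other genes of this list 3 had enough counts, and of these 1 rose and 1 fell. Zm00001d037724 measured 3.15, 8.99 and 4.79 CPM (wild type) against 25.6, 23.7 and 21.4 CPM (nacRNAi), so that it varied widely among the wild-type libraries but never reached the nacRNAi range. It rose by 2.06 on the log2 scale (SE 0.38, edgeR adjusted p = 0.00589). Gibberellin 2-beta-dioxygenase 6 (Zm00001d024175, chromosome 10, 53027195 to 53031460) fell from 3.39, 4.35 and 4.11 CPM to 0.205, 0.154 and 0.0418 CPM, or -4.85 in log2 (SE 0.46, edgeR adjusted p = 0.000129). Gibberellin 2-oxidase10 (Zm00001d012712) did not pass, at 0.34 (SE 0.71, edgeR adjusted p = 0.725), and the untested 9 had at most 18 counts in a library.

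The other synthesis genes were called at a share near that of all genes. Of 21 such genes 5 were tested, of which 1 rose, 1 fell and 3 did not pass, that is 40% called beside 47.3% of all tested genes, with a median log2 fold change of -0.27 beside 0.00 for all tested genes. Anther ear1 (Zm00001d032961), the copalyl diphosphate synthase whose loss dwarfs maize plants, measured 16.2, 9.95 and 13.3 CPM (wild type) against 12.3, 11.9 and 15.7 CPM (nacRNAi), with overlap (0.02, SE 0.19, edgeR adjusted p = 0.953). Kaurene synthase3 (Zm00001d002349) rose from 1.04, 0.874 and 1.11 CPM to 2.83, 1.5 and 1.56 CPM (0.96, SE 0.32, edgeR adjusted p = 0.0407). That call was lost without wild-type replicate 1, 2 or 3, without nacRNAi replicate 1 and with the replicate number as a block, where the adjusted p was 0.0679. Kaurene oxidase1 (Zm00001d046344) fell from 8.25 ± 1.45 to 5.42 ± 0.875 CPM (SD, n = 3 each; -0.61, SE 0.18, edgeR adjusted p = 0.0243). It was at -0.09 under library totals (edgeR adjusted p = 0.682), and its call was also lost on both FPKM scales, without wild-type replicate 1 or 3 and without nacRNAi replicate 1 or 3. Kaurene oxidase2 (Zm00001d046342) was at -0.64 (SE 0.24, edgeR adjusted p = 0.0618).

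The genes of the last activating step were not detectable at this depth. Gibberellin 3-oxidase1 (Zm00001d037627) had at most 1 count in a library, and dwarf plant1 (Zm00001d039634), the 3-oxidase gene behind the classical dwarf1 mutant, had 0 in all 6. Where no read was counted, a true level of up to 3 counts remains possible, that is 0.0362 to 0.0625 CPM depending on the library. Of the kaurenoic acid oxidase genes, dwarf plant3 (Zm00001d045563) reached 17 counts and kaurenoic acid oxidase2 (Zm00001d047830) reached 16.

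The genes of gibberellin perception comprise the receptors and the proteins through which they act. Of 28 genes described as receptors, DELLA proteins, GID2 or SPINDLY, 18 were tested, and of these 1 rose, 5 fell and 12 did not pass (median -0.21), that is 33.3% called beside 47.3% of all tested genes. The receptor gene GID1A (Zm00001d010308) stood at 21.4 ± 0.636 CPM in wild type and at 21.2 ± 0.509 CPM in nacRNAi (SD, n = 3 each; -0.01, SE 0.07, edgeR adjusted p = 0.894), but at 0.50 under library totals (edgeR adjusted p = 0.0011). The GID1-like receptor Zm00001d038165 was likewise at -0.08 (edgeR adjusted p = 0.675) and at 0.44 under library totals (edgeR adjusted p = 0.0114). Under library totals 11 genes of this list were called, 7 of them higher, where 59.5% of all tested genes were called and 84.9% of those were higher. On log2(FPKM + 1) and log2(FPKM + 0.1) 11 and 10 were called by limma, where 63.9% and 64.0% of all tested genes were.

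With TMM the DELLA genes did not move together. A gene described as DELLA protein RGA (Zm00001d044065) rose from 17.7, 19.7 and 21.8 CPM to 30.5, 28.5 and 27.7 CPM (0.55, SE 0.09, edgeR adjusted p = 0.00208), and it was higher on every scale. Dwarf plant8 (Zm00001d033680) fell from 2.96 ± 0.177 to 1.48 ± 0.136 CPM (SD, n = 3 each; edgeR adjusted p = 0.00393). With library totals its log2 fold change was -0.49 and it did not pass (edgeR adjusted p = 0.0797), nor did it on either FPKM scale. Dwarf plant9 (Zm00001d013465) was at 0.06 with TMM (edgeR adjusted p = 0.77). Library totals put it at 0.58 (edgeR adjusted p = 0.0086). Both FPKM scales likewise called it higher, with log2 fold changes of 0.85 and 1.02. SPINDLY (Zm00001d031938), known in Arabidopsis as a sugar transferase that acts on DELLA proteins, was at 0.18 with TMM (SE 0.10, edgeR adjusted p = 0.157). This gene too was called higher with library totals (0.70, edgeR adjusted p = 0.000542) and on both FPKM scales (0.72 and 0.81).

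Of the genes with a GID1L2 description, which belong to the wider carboxylesterase family of the receptor, Zm00001d016895 fell from 68.9 ± 18.9 to 28.6 ± 2.07 CPM (-1.27, edgeR adjusted p = 0.00206) and Zm00001d050837 from 25.8 ± 3.76 to 12.7 ± 1.61 CPM (SD, n = 3 each; -1.02, edgeR adjusted p = 0.000651). On log2(FPKM + 1) these calls were lost, at -0.27 and -0.06 (limma adjusted p = 0.46 and 0.76). The other genes called lower had no read in any nacRNAi library. A GID1L2 gene (Zm00001d007257) had 40, 41 and 19 counts in wild type, which makes it at least 50.1 times lower in nacRNAi (edgeR adjusted p = 0.00113). An F-box GID2 gene (Zm00001d028159) had 40, 170 and 67 counts and was at least 139 times lower (edgeR adjusted p = 0.00239), or at least 78.8 times lower without wild-type replicate 2. Both bounds set nacRNAi at 3 counts over its 3 libraries. With TMM the other tested genes described as GID2 were not called. Zm00001d050903 stood at 3.49 ± 0.279 and 3.34 ± 0.139 CPM (SD, n = 3 each; -0.06, edgeR adjusted p = 0.772). Under library totals it was at 0.45 (edgeR adjusted p = 0.0423). Zm00001d016973 was at 0.68 (edgeR adjusted p = 0.41). The other tested GID1L2 genes, at -0.74 to 0.48, were not called with TMM either.

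**Figure D4:**
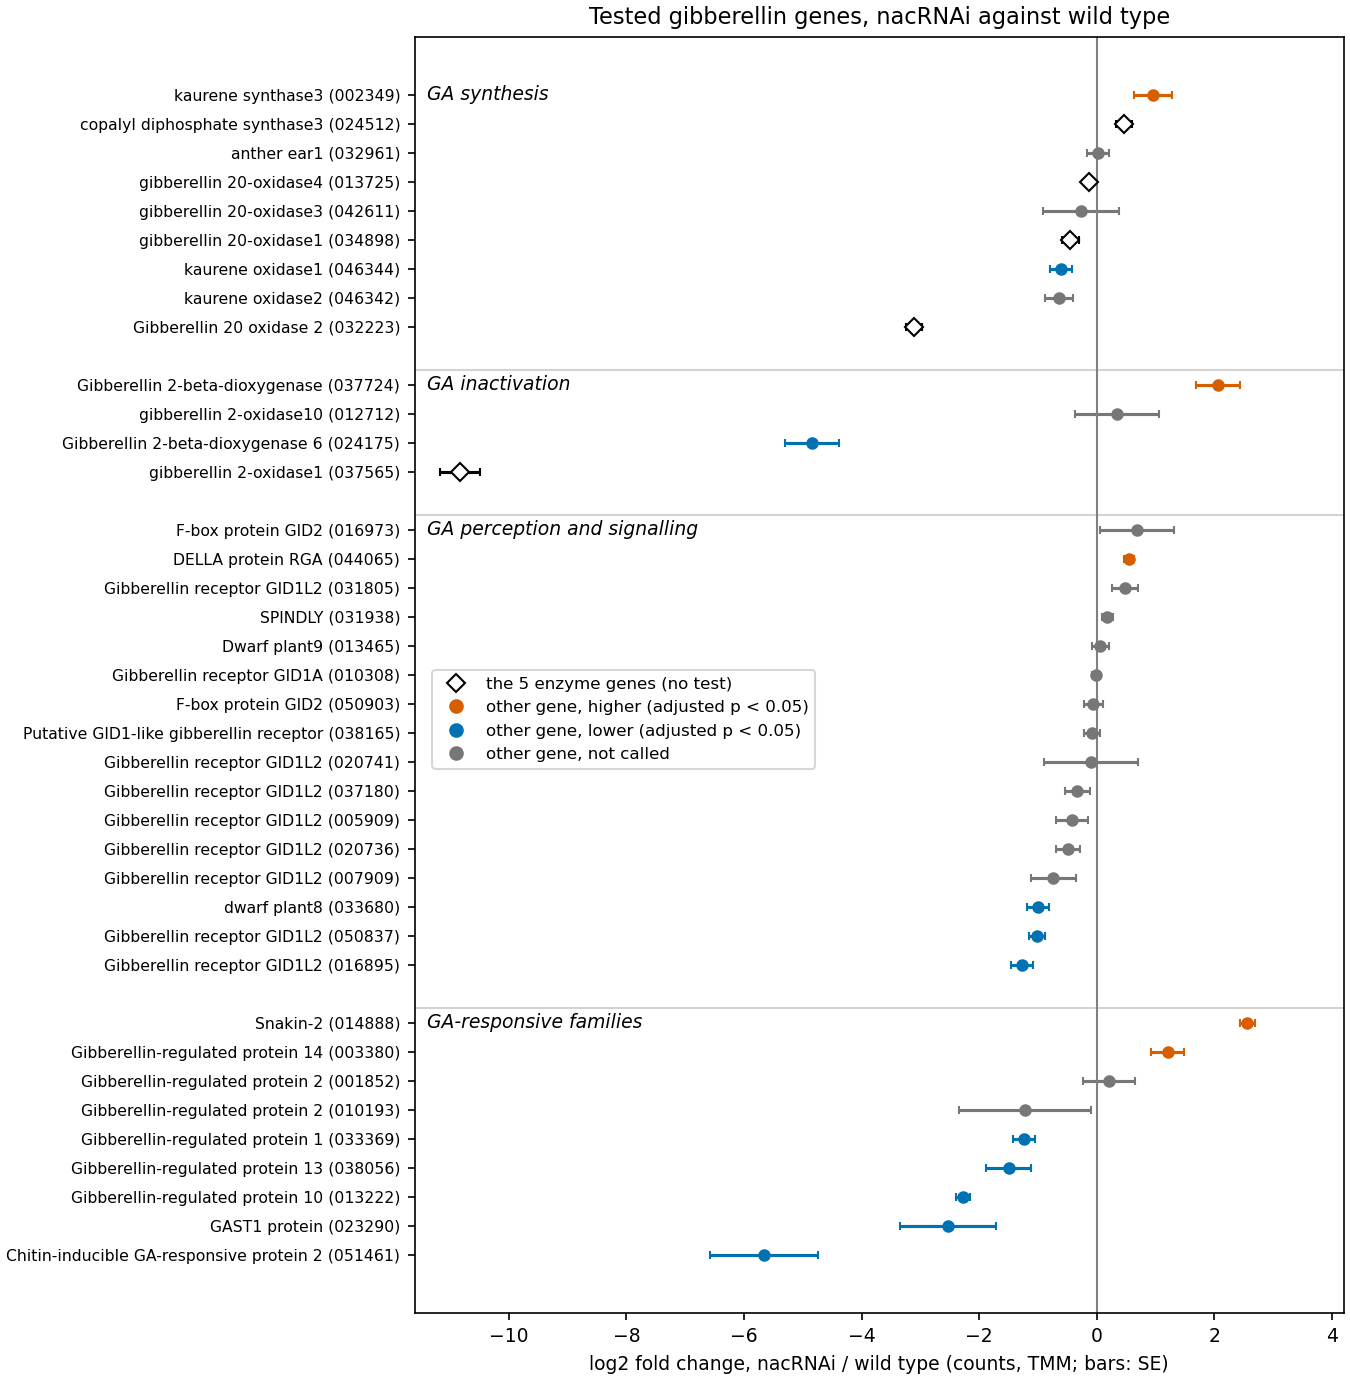
Log2 fold change of nacRNAi over wild type, with SE as bars, for the tested gibberellin genes grouped by role and labelled by description and the last digits of the identifier; diamonds are the 5 enzyme genes, coloured circles other genes called higher or lower and grey circles genes not called. The pair without reads in nacRNAi is not drawn. Gibberellin 2-oxidase1, at -10.84, lies farthest from 0 among the genes drawn.

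Families named for their response to gibberellin went both ways. Of 12 genes 9 were tested, of which 2 rose, 5 fell and 2 did not pass, that is 77.8% called against 47.3% of all tested genes, with a median of -1.24. That excess depended on the scale. Under library totals, on log2(FPKM + 1) and on log2(FPKM + 0.1) 5 of the 9 were called each time, 2 higher and 3 lower. There 59.5%, 63.9% and 64.0% of all tested genes were called. Most genes of this list belong to the GASA or snakin family of small secreted cysteine-rich peptides. Snakin-2 (Zm00001d014888) rose from 60.1, 72.2 and 54.3 CPM to 385, 321 and 394 CPM (2.56, SE 0.13, edgeR adjusted p = 1.25e-05). Gibberellin-regulated protein 14 (Zm00001d003380) rose from 6.15 ± 2.24 to 14.2 ± 1.88 CPM (SD, n = 3 each; 1.21, edgeR adjusted p = 0.0127). Gibberellin-regulated protein 10 (Zm00001d013222) fell from 209, 229 and 191 CPM to 50.7, 40.0 and 38.6 CPM (-2.28, SE 0.12, edgeR adjusted p = 1.44e-05). These 3 genes kept their calls in every alternative run.

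Gibberellin-regulated protein 1 (Zm00001d033369) fell from 35.7 ± 5.43 to 15.1 ± 3.71 CPM (SD, n = 3 each; -1.24, edgeR adjusted p = 0.00209). Gibberellin-regulated protein 13 (Zm00001d038056), at -1.50 (edgeR adjusted p = 0.0138), lost its call on both FPKM scales, under library totals (edgeR adjusted p = 0.0603) and without nacRNAi replicate 2. The GAST1 gene (Zm00001d023290), at -2.53 (edgeR adjusted p = 0.0356), lost its call on both FPKM scales, under library totals (edgeR adjusted p = 0.0548) and without wild-type replicate 1 or 2 or nacRNAi replicate 2 or 3. Chitin-inducible gibberellin-responsive protein 2 (Zm00001d051461), of another family, had 36, 27 and 20 counts in wild type and 0, 2 and 0 in nacRNAi (edgeR adjusted p = 0.00169). The most abundant gene that did not pass was Gibberellin-regulated protein 2 (Zm00001d001852), with 153 to 211 CPM across wild-type libraries and 90.7 to 304 CPM across nacRNAi libraries (0.21, SE 0.44, edgeR adjusted p = 0.736).

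Alpha-amylase genes, the best known gibberellin targets of cereal grain, did not exceed 15.2 CPM in any library. Of 7 genes 4 were tested, of which 2 rose and 1 fell, beside 23.2% of all tested genes called higher and 24.0% lower. The remaining tested gene was the most abundant, at 14.1 ± 1.49 and 14.5 ± 0.45 CPM (SD, n = 3 each; 0.04, edgeR adjusted p = 0.758). Under library totals it was at 0.56 (edgeR adjusted p = 0.00368). An Alpha-amylase 1 gene (Zm00001d018159) fell from 5.52, 7.72 and 6.82 CPM to 0.916, 0.685 and 0.516 CPM (-3.24, SE 0.26, edgeR adjusted p = 5.53e-05). Another (Zm00001d005890) had 1, 1 and 0 counts in wild type and 24, 22 and 12 in nacRNAi (edgeR adjusted p = 0.00574). The chloroplastic Alpha-amylase 3 (Zm00001d043662) rose by 0.65 in log2 (edgeR adjusted p = 0.0451). It no longer passed without wild-type replicate 2 or 3 or any single nacRNAi replicate.

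Markers of other kernel parts were summed per library, and their calls stand beside 23.2% of all tested genes called higher and 24.0% lower. Summed over 8 embryo markers the level was 1344 to 1416 CPM in wild type and 913 to 1202 CPM in nacRNAi, with 6 of 8 tested genes called lower and 1 higher. Over 4 aleurone genes it was 118 to 136 against 102 to 109 CPM, with 2 of 3 tested genes lower. Over 8 basal transfer layer genes it was 25.5 to 65.4 against 15.1 to 24 CPM, with 1 of 4 tested genes lower and 1 of the 8 at 0 throughout. Of 4 embryo surrounding region genes none had enough counts, and their sums were 0.0208 to 0.226 against 0 to 1.66 CPM. The 17 green-tissue genes summed to 35.5 to 43.2 against 35.2 to 41.9 CPM, 2 of 7 tested being higher and 2 lower. The part of these markers in the differences of the 5 enzyme genes was not tested.

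No other gene model in the tables overlapped any of the 5 genes. The nearest tested genes on each side, 10 in all at 31.3 to 506 kb, had log2 fold changes of -1.24 to 0.43, with 4 called lower, 1 higher and 5 not called, a share near the 47.3% called among all tested genes. Beside gibberellin 2-oxidase1 these were an E3 ubiquitin ligase gene (Zm00001d037557) at -0.04 (SE 0.09, edgeR adjusted p = 0.761) and a USP family gene (Zm00001d037573) at -0.59 (SE 0.15, edgeR adjusted p = 0.0151). The latter call was lost under library totals, at -0.08, and without wild-type replicate 3, and on log2(FPKM + 1) the direction turned, to 0.21. Beside Gibberellin 20 oxidase 2 they were a pyruvate dehydrogenase subunit gene (Zm00001d032224) at 0.09 (edgeR adjusted p = 0.3) and an undescribed gene (Zm00001d032220) at 0.43 (edgeR adjusted p = 0.0262), which no longer passed without wild-type replicate 2 or 3, without nacRNAi replicate 2 or 3 and with the replicate block (edgeR adjusted p = 0.053). The near absence of gibberellin 2-oxidase1 reads was thus not shared by the nearest tested genes, which lay 281 and 259 kb away. Any gene in between had too few counts to be tested, so the comparison does not cover the nearer region.

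The most similar profiles were sought among tested genes outside the gibberellin, alpha-amylase, isoprenoid supply, 2-oxoglutarate oxygenase and diterpenoid lists. The markers of kernel parts were not left out. Genes without a description, or described as uncharacterized, hypothetical or unknown, were left out, so a nearer gene of these kinds may exist. The measure was the Euclidean distance between log2(CPM + 0.5) profiles over the 6 libraries, each centred on its own mean. With 2 lines, such likeness mostly reflects the size of the difference between them, as limited by the 0.5 CPM added. All nacRNAi values of gibberellin 2-oxidase1 lay under that amount, so its distances do not measure likeness in the size of the fall. For gibberellin 2-oxidase1 the nearest was Zm00001d050032, known as bt2, the gene of the small ADP-glucose pyrophosphorylase subunit of starch synthesis (distance 0.506). This gene is also among the starchy endosperm markers used above. It measured 2392, 2332 and 2523 CPM (wild type) against 11.5, 10.8 and 11.4 CPM (nacRNAi), a mean 215 times lower, against a mean 1817 times lower for gibberellin 2-oxidase1. Next was Ribonuclease 1 (Zm00001d032186, distance 0.673), at 237, 293 and 235 against 0.241, 0.475 and 0.377 CPM. For Gibberellin 20 oxidase 2 they were a gene described as related to AMP-activated protein kinase (Zm00001d015200, distance 0.258) and a NAC domain gene (Zm00001d011555, distance 0.268). For gibberellin 20-oxidase1 they were a pyruvate kinase gene (Zm00001d043986, 0.0816) and Heat shock protein 90-2 (Zm00001d020898, 0.0989), and for gibberellin 20-oxidase4 Cytochrome b5 isoform E (Zm00001d032442, 0.0788) and FLX-like 1 (Zm00001d021587, 0.0804). For copalyl diphosphate synthase3 the distances were 0.103 to Zm00001d038860 and 0.161 to Zm00001d008720.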

How the data were processed

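Endosperm RNA was sequenced from 3 wild-type and 3 nacRNAi libraries, grouped by sample title. Per the labels' protocols the libraries came from a Truseq mRNA kit, and strandedness is not stated. The authors deposited raw read counts per gene, whole numbers without normalization, per the file headers and names. They also deposited FPKM values per gene, by their name scaled by length and library size. The FPKM values were not these counts rescaled. A gene described as gibberellin 2-oxidase4 (Zm00001d017294) had 0 counts in all 6 libraries but 0.0287 to 0.133 FPKM. Aligner, counter, build and annotation: not given in the sources used here.

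Counts were filtered with filterByExpr, scaled by TMM (factors 0.806 to 1.214) and tested in edgeR 4.0.16 (R 4.3.3) by quasi-likelihood, with line as the only term and Benjamini-Hochberg adjustment over 22259 genes. The approximate SE is the size of the log2 fold change over the root of the F statistic. The procedure was tested on simulated data in which few genes changed. In the real data 47.3% of tested genes were called, so that simulation does not bear on the choice of scale. No pair of libraries agreed within sampling noise (chi-square per degree of freedom 25.8 to 49.1). Alternatives used library totals, DESeq2 1.42.0 size factors and Wald test, other filters, a replicate block, limma 3.58.1 on log2(FPKM) with 1 or 0.1 added, a 2-fold minimum and the removal of single libraries. Python 3.11.15 drew the figures.

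Members and lists were chosen with earlier results of these data known. Lists were read from descriptions, and thick tassel dwarf1 and brassinosteroid-deficient dwarf1 were dropped as no gibberellin genes. The text may name the 5 genes, tested genes of the gibberellin lists and the 3 genes of each other list with the smallest adjusted p. It may also name, for each of the 5, the nearest tested gene on each side and the 2 nearest profiles among described genes outside these lists. Marker genes were not left out of the profile search. NAC128, NAC130 and bt2 are identified by known identifiers.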

Additional observations from a re-analysis of the deposited data

How the results depend on the processing

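The direction of gibberellin 2-oxidase1, Gibberellin 20 oxidase 2 and copalyl diphosphate synthase3 held in every alternative run. Library totals, log2(FPKM + 1) and log2(FPKM + 0.1) gave, in that order, -10.32, -5.91 and -8.58 for gibberellin 2-oxidase1, -2.60, -1.76 and -2.11 for Gibberellin 20 oxidase 2, and 0.98, 0.68 and 0.82 for copalyl diphosphate synthase3. They turned gibberellin 20-oxidase4 to 0.39, 0.49 and 0.49 and gibberellin 20-oxidase1 to 0.07, 0.50 and 0.55. The median of all genes moved by 0.52, 0.38 and 0.59 there, and the cause was not tested. With 1 library left out, gibberellin 2-oxidase1 ranged from -11.27 to -10.30. Gibberellin 20-oxidase4 held 94.5% (wild type) and 97.9% (nacRNAi) of 20-oxidase raw counts.

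With a 2-fold minimum 3926 genes passed in place of 10519, with 0 of the other synthesis genes, 4 of the other 2-oxoglutarate oxygenases in place of 15 and 1 of the diterpenoid pathway in place of 3. Of the other synthesis genes 1 was called under library totals and 1 with the replicate block, in place of 2, and 0 to 2 without single libraries. Of the diterpenoid pathway 1 to 3 were called without single libraries. Perception genes called numbered 11, 11 and 10 under library totals, log2(FPKM + 1) and log2(FPKM + 0.1), in place of 6, and isoprenoid supply genes 3, 3 and 3 in place of 1. Over those settings GID1A turned to 0.50, 0.66 and 0.69, Zm00001d038165 to 0.44, 0.77 and 0.80 and Zm00001d037557 to 0.48, 0.28 and 0.34. Zm00001d037573 turned to 0.21 and 0.23 on the FPKM scales. Deviations of libraries with the same replicate number were not positively correlated (r of -0.04, -0.04 and -0.1), so the numbers were not taken to pair the libraries. With the replicate block 9273 genes passed. Counts near 0 limit the size of the fall of gibberellin 2-oxidase1.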

Other observations

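Of 8 genes that supply plastid isoprenoids, the precursors of gibberellin, 5 were tested and 1 fell, that is 20% called beside 47.3% of all tested genes. This was geranylgeranyl pyrophosphate synthase2 (Zm00001d021929), whose enzyme makes the diphosphate that copalyl diphosphate synthase uses. It measured 7.10, 10.3 and 8.20 CPM (wild type) against 0.0482, 0.0839 and 0.0697 CPM (nacRNAi), a difference of -6.96 in log2 (SE 0.28, edgeR adjusted p = 3.23e-06), and it kept its call in every alternative run. Geranylgeranyl pyrophosphate synthase1 (Zm00001d006678) stood at 4.48 ± 0.319 and 4.61 ± 0.604 CPM (SD, n = 3 each; 0.04, edgeR adjusted p = 0.852). Under library totals it was at 0.56 (edgeR adjusted p = 0.014).

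The gibberellin oxidases belong to the large family of 2-oxoglutarate-dependent oxygenases. Of 39 other genes described as such, 27 were tested, of which 4 rose and 11 fell, with a median log2 fold change of -0.38, that is 55.6% called, near the 47.3% of all tested genes. Under library totals 13 were called, 11 of them higher, where 59.5% of all tested genes were called and 84.9% of those were higher. The member with the smallest adjusted p was Zm00001d051664, which fell from 56.1 ± 0.862 to 30.1 ± 2.01 CPM (SD, n = 3 each; -0.90, SE 0.07, edgeR adjusted p = 4.69e-05). Zm00001d003311, described as AOP1, fell from 37.0 ± 3.75 to 11.0 ± 2.07 CPM (-1.74, SE 0.15, edgeR adjusted p = 0.000105), and Zm00001d009927 from 11.3 ± 0.772 to 6.67 ± 0.506 CPM (-0.76, edgeR adjusted p = 0.000894). On log2(FPKM + 1) Zm00001d051664 and Zm00001d009927 no longer passed, at -0.16 and -0.20 (limma adjusted p = 0.0849 and 0.138), and the latter did not pass under library totals either (-0.25, edgeR adjusted p = 0.117). Of the 14 other genes that the files place in diterpenoid biosynthesis, 5 were tested, and 1 rose and 2 fell, beside 23.2% of all tested genes called higher and 24.0% lower.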
